A study of Mus musculus with 18 samples.

Results

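Genes of the glial cells that share a dorsal root ganglion (DRG) with its sensory neurons were followed in neuron cultures of 2 genotypes. The 8 genes, Apoe, Fabp7, Glul, Sox10, S100b, Erbb3, Cdh19 and Sox2, were taken by symbol from a list of satellite glia and Schwann lineage markers. They were chosen with earlier results of these data known. All 8 were found among the 17198 genes of the deposited table, and all 8 passed the filter on low values, a mean normalized count of at least 1, which removed 0 genes.

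Satellite glia are flat cells that wrap the cell bodies of sensory neurons, and Schwann cells ensheathe their axons. Both arise from the neural crest, where the transcription factor SOX10 sets glial fate and neuregulin made by axons acts on glia through the receptor ERBB3. Satellite glia take up glutamate and turn it into glutamine, carry lipids in apolipoprotein E particles, and keep features of immature glia such as SOX2 and the fatty acid-binding protein FABP7.

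RNA was sequenced from mouse cultures labelled as DRG neurons. The wild type (WT) mice were compared with heterozygotes (HET) that carried 1 Dynlrb1(tm1a) allele. The gene product is a roadblock-type light chain of dynein, which moves cargo from axon to soma. The tm1a design is a knockout-first gene trap carried in the germline, so in a HET mouse glia and neurons both have it, and no Cre or cell-type promoter is named. The 6 groups were WT at 12, 24 and 48 h in culture and HET at 12, 24 and 48 h, with 3 biological replicates each and 18 cultures in all. Replicates carry the numbers 1, 2 and 5 at the earlier times (12 and 24 h). Those at 48 h are numbered 1 to 3. Age, sex and the number of mice per culture are not given in the sources used here, and p-values measure the spread between these cultures.

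Markers of neurons were abundant in the cultures. All 12 neuron markers of a list (such as Uchl1, Prph and Scn9a) had a mean above 1 FPKM (fragments scaled to transcript length and library total), and their summed level ran from 6280 to 8796 FPKM over the 18 cultures. The 8 glial genes summed to between 361 and 914 FPKM. Dynlrb1 was below the lowest WT culture in every HET culture, at -0.83 (log2 fold change, SE 0.071) averaged over times, with an adjusted p of 2.85e-05 in limma. Tested time by time, Dynlrb1 passed a threshold of 0.05 only at 24 h (-0.86, limma adjusted p 0.0390). The 12 h test (-0.78, 0.0655) and the 48 h test (-0.84, 0.0501) missed it, with the limma adjusted p second in each pair. The authors' deposited table gives Dynlrb1 adjusted p of 1.48e-04, 1.25e-05 and 1.12e-05 at 12, 24 and 48 h. HET replicate 3 at 48 h stood apart: its root mean square distance on the log2 scale was 0.365 to the WT 24 h mean and 0.580 to the mean of the other 48 h HET cultures. Many cultures were nearer to another group than to their own, but elsewhere it was the other genotype at the same time. HET replicate 1 at 48 h was at 0.428 from the WT 48 h mean and 0.511 from its own. Own means left the culture itself out and so held fewer cultures.

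Per length of transcript, 3 of the 8 genes were abundant and the others modest. Averaged over the 18 cultures, Apoe reached 227 FPKM, S100b 192 FPKM and Glul 126 FPKM, above 99%, 98.6% and 97.3% of all genes. Sox10 had a mean level of 14.6 FPKM, Sox2 5.67 FPKM, Fabp7 5.25 FPKM, Cdh19 3.62 FPKM and Erbb3 1.85 FPKM, the last above 33.3% of genes. In WT at 12 h the order of the levels was Apoe (404 ± 72.8 FPKM, SD, n = 3), S100b (252 ± 72.4), Glul (105 ± 11.5), Sox10 (15.3 ± 1.37), Fabp7 (7.08 ± 0.96), Sox2 (6.87 ± 1.21), Cdh19 (4.61 ± 0.51) and Erbb3 (1.21 ± 0.31). Fabp7 and Sox2 were the only neighbours in that order whose cultures overlapped. By 48 h in WT the order had turned to Glul (158 ± 11.6 FPKM, SD, n = 3), S100b (143 ± 20.3), Apoe (61.7 ± 0.62), Sox10 (18 ± 6.26), Sox2 (5.81 ± 0.16), Erbb3 (3.32 ± 0.55), Cdh19 (3.15 ± 0.26) and Fabp7 (2.97 ± 1.53), with overlap between Glul and S100b and among the last 3. In HET at 48 h the first 3, S100b (144 ± 17.2 FPKM, SD, n = 3), Glul (126 ± 9.29) and Apoe (124 ± 41.4), overlapped one another in that order.

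The genes are all protein-coding and lie on 5 chromosomes of the mouse build GRCm38 (GENCODE vM21). Apoe spans chr7:19696109-19699188 and Sox10 chr15:79154908-79165240, both on the minus strand, and Sox2 chr3:34650405-34652461 on the plus strand. Fabp7 (chr10:57784881-57788450, plus strand), S100b (chr10:76253853-76261159, plus strand) and Erbb3 (chr10:128567523-128589652, minus strand) share chromosome 10. Glul (chr1:153899944-153909723, plus strand) and Cdh19 (chr1:110888326-110977584, minus strand) are on chromosome 1.

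Upstream sequence in the RefSeq table (build GRCm38.p6) was matched for 5 of the 8 genes, Apoe, Fabp7, Glul, S100b and Sox2. The 250 bases before the start site were searched on both strands for ACAAAG and ACAATG, short forms of the site that SOX proteins bind. A stretch of letters that matches 1 motif cannot match the other. Such a match was present in 25.2% of 32851 windows of that length. The table has 3 start sites for Apoe: the window of the outermost, at the gene's annotated start, held 2 matches and those of both inner ones held 0. The window of Sox2 held 1 and those of Fabp7, Glul and S100b held 0. The 3 windows below show Apoe (outermost start site) and Fabp7, which fell together with time in culture, and Sox2, which varied together with Sox10. Capitals mark the matches, a description of the letters and not of binding. The windows are chr7:19699189-19699438 (minus strand), chr10:57784673-57784922 (plus strand) and chr3:34649745-34649994 (plus strand), read 5′ to 3′.
Apoe: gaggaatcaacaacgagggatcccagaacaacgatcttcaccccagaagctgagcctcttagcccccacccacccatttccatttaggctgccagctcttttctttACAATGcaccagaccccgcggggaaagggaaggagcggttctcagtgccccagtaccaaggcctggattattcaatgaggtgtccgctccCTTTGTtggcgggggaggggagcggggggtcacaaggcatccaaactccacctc
Fabp7: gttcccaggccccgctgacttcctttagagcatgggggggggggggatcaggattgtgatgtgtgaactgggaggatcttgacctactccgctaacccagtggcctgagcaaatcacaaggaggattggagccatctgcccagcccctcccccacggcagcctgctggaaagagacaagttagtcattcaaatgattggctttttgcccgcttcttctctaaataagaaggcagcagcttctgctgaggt
Sox2: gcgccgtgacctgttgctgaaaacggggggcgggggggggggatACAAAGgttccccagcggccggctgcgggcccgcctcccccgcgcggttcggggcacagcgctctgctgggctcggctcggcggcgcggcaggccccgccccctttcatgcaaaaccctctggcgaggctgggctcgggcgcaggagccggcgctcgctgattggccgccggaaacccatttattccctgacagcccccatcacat

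In WT cultures, 5 of the 8 genes changed between 12 and 48 h: Apoe, Fabp7 and S100b fell, and Glul and Erbb3 rose. The test was limma on log2(normalized count + 1), fitted to all genes, with a Benjamini-Hochberg adjusted p under 0.05 as the threshold. In this comparison 47.1% of all genes passed, 30.0% higher and 17.1% lower at 48 h, so the share of the 8 genes was near that of the whole table. The median log2 fold change (log2 ratio) was -0.39 over the 8 genes and 0.11 over all genes, the latter 0.0069 on a second set of deposited columns scaled differently. Groups did not overlap for 7 of the 8 genes, against 55.3% of all genes. Each value is a share of the RNA of a whole culture, so fewer cells of a type and less RNA per cell cannot be told apart.

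Apoe, the lipid carrier that satellite glia secrete, fell furthest. Its normalized count in WT was 21523, 24423 and 16921 in replicates 1, 2 and 5 at 12 h, and 9569, 10621 and 12372 in the same order at 24 h. At 48 h it was 3204, 3175 and 3239 in replicates 1, 2 and 3. Every culture of a later time was below every culture of an earlier one, and the 48 h cultures lay close together. The fall from 12 to 48 h was 6.46-fold, a log2 ratio of -2.69 (SE 0.39, limma adjusted p 8.10e-05).

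Fabp7, which binds fatty acids in immature glia, had normalized counts in WT of 191, 252 and 228 at 12 h, 101, 85.5 and 115 at 24 h, and 82.8, 51.8 and 147 at 48 h. All 12 h cultures were above all later ones, while replicate 3 at 48 h was higher than every 24 h culture. Its log2 ratio at 48 h was -1.36 (SE 0.38, limma adjusted p 0.00744). Without WT replicate 2 at 48 h it was -1.01 with a limma adjusted p of 0.0539, past the threshold no longer.

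S100b, a calcium-binding protein that is used as a glial marker and is also made by large sensory neurons, had normalized counts in WT of 20859, 19619 and 11666 at 12 h. These were 14354, 12069 and 14081 at 24 h and 11143, 10047 and 8358 at 48 h. Replicate 5 at 12 h was the low one of its group, yet still above every 48 h culture. At 48 h the log2 ratio was -0.78 (SE 0.21, limma adjusted p 0.00547).

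Glul, the glutamine synthetase that converts glutamate to glutamine, went the other way. Its normalized counts in WT were 11520, 13824 and 11474 at 12 h, 15490, 15194 and 15084 at 24 h, and 19981, 17998 and 17388 at 48 h. The 3 groups did not overlap, each later one being higher. Its log2 ratio at 48 h was 0.59 (SE 0.093, limma adjusted p 1.40e-04), and 0.48 on the differently scaled columns (limma adjusted p 9.40e-04).

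Erbb3, the receptor through which axonal neuregulin acts on glia, was the second gene to rise. Its normalized counts in WT were 249, 147 and 211 at 12 h and 200, 216 and 303 at 24 h. At 48 h they were 523, 659 and 482, above all earlier cultures. The log2 ratio at 48 h was 1.47 (SE 0.38, limma adjusted p 0.00463).

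**Figure D1:**
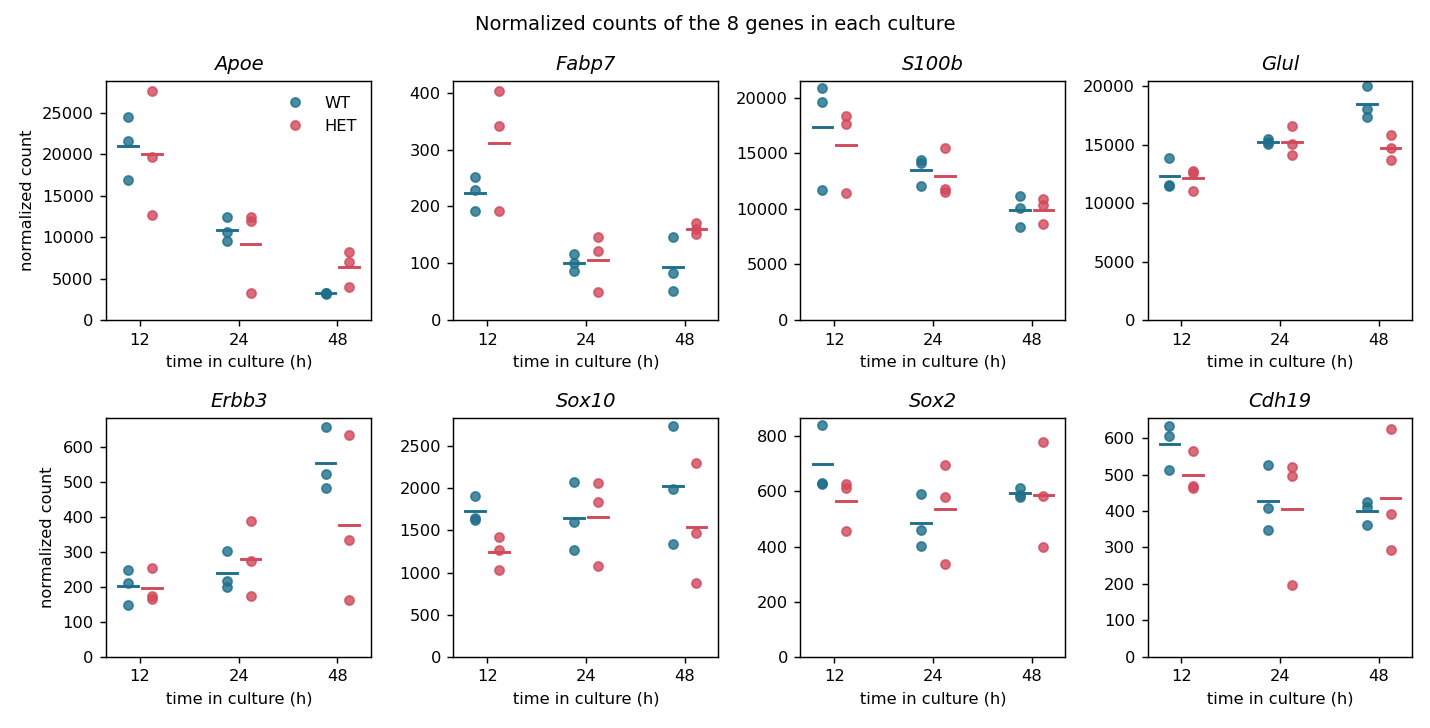
Normalized count (y axis, linear, from 0) of each of the 8 genes by time in culture in hours (x axis), where each point is 1 culture, bars are group means, and WT and HET are coloured separately (n = 3 per group). In WT, Apoe had means of 20956, 10854 and 3206 at 12, 24 and 48 h, Glul had means of 12273, 15256 and 18456, and the Sox10 cultures of all 3 times overlapped.

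The transcription factors and the cadherin did not pass the threshold in WT. Sox10, which sets glial fate, had normalized counts of 1905, 1650.2 and 1626 at 12 h, 1270.3, 1603 and 2078 at 24 h, and 1991, 2744 and 1334 at 48 h, with wide overlap. Its log2 ratio at 48 h was 0.17 (limma adjusted p 0.681). Sox2, the factor of immature glia, ran from 580.2 to 611 at 48 h and from 627 to 842 at 12 h, without overlap, and its log2 ratio was -0.23 (limma adjusted p 0.485). Cdh19, a cadherin of Schwann cell precursors, ran from 362 to 424 at 48 h and from 511 to 634 at 12 h, with a log2 ratio of -0.54 (limma adjusted p 0.151). Leaving out HET replicate 1 at 24 h, which enters the pooled spread only, took the limma adjusted p of Cdh19 to 0.0470, and quantile normalization gave -0.77 with 0.0329.

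At 24 h in WT, 0 of the 8 genes passed the limma threshold and 3 had an unadjusted p under 0.05. Over all genes 3.62% passed, and 3688 genes had an unadjusted p under 0.05. The 3 genes were Apoe, with a log2 ratio of -0.94 (limma adjusted p 0.171), Fabp7 with -1.15 (0.0917) and Glul with 0.32 (0.0651). Without HET replicate 1 at 24 h the limma adjusted p of Apoe was 0.0492. The authors' deposited table gives Fabp7 an adjusted p of 0.0316 and Apoe 0.0670 for this comparison.

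In HET cultures, 3 of the 8 genes changed between 12 and 24 h: Apoe and Fabp7 fell and Glul rose. Over all genes 18.9% passed in limma, 13.1% higher and 5.76% lower. Apoe had normalized counts in HET of 12649, 27570 and 19624 at 12 h and 3285, 11939 and 12366 at 24 h. Replicate 1 was the lowest at both times, and the groups did not overlap. That gave a log2 ratio of -1.27 (SE 0.39, limma adjusted p 0.0312). It was -0.64 (0.143) without HET replicate 1 at 24 h, -1.0 (0.160) without HET replicate 2 at 12 h and -1.25 (0.0687) without HET replicate 5 at 12 h, limma adjusted p in parentheses.

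Fabp7 in HET had normalized counts of 192, 341 and 403 at 12 h and 49.6, 121 and 147 at 24 h. Here too replicate 1 was lowest at each time, and all 24 h cultures were below all 12 h cultures. The log2 ratio was -1.62 (SE 0.38, limma adjusted p 0.00808), and with any 1 culture left out the limma adjusted p stayed between 0.00494 and 0.0469. Glul in HET had 12549, 11058 and 12722 at 12 h and 16587, 14137 and 15041 at 24 h. Every 24 h culture was above every 12 h culture, and the log2 ratio was 0.33 (SE 0.093, limma adjusted p 0.0205). That call was lost without HET replicate 2 at 12 h (limma adjusted p 0.115), HET replicate 1 at 24 h (0.0909) or HET replicate 5 at 24 h (0.0530), and on the differently scaled columns (0.28, limma adjusted p 0.0582).

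Between 12 and 48 h in HET, 2 of the 8 genes changed, Apoe and S100b, both lower, and 0 were higher. Over all genes 14.2% passed in limma, 10.6% higher and 3.62% lower. The median log2 ratio was -0.12 over the 8 genes and 0.10 over all genes. All calls of this comparison rested on few cultures. Without HET replicate 2 at 12 h, HET replicate 1 at 48 h or HET replicate 2 at 48 h, 0 of 17198 genes passed, with 4155, 3729 and 3881 at an unadjusted p under 0.05 in that order. Without HET replicate 3 at 48 h 4886 genes passed, against 2442 with all cultures.

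Apoe at 48 h in HET had normalized counts of 4035, 6997 and 8213 in replicates 1, 2 and 3. All 3 were below the lowest 12 h culture, and they overlapped the 24 h cultures, of which replicate 1 was lower than all 3. The log2 ratio was -1.63 (SE 0.39, limma adjusted p 0.0178). It was -1.36 (0.0927), -1.32 (0.106) and -1.72 (0.0695) without the 3 cultures named above, in that order, limma adjusted p in parentheses.

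S100b in HET had normalized counts of 18324, 17607 and 11378 at 12 h, 11748, 15487 and 11531 at 24 h, and 8605, 10325 and 10881 at 48 h. All 48 h cultures were below all 12 h cultures, and replicate 5 at 12 h was close to them. Against 12 h the log2 ratio was -0.64 (SE 0.21, limma adjusted p 0.0479), just past the threshold. The call was lost in 12 of the 18 fits that left out 1 culture, with a limma adjusted p between 0.0512 and 0.191 there. These left out WT replicate 2 at 12 h, WT replicates 1, 2 and 5 at 24 h, WT replicates 1 and 2 at 48 h, HET replicates 1 and 2 at 12 h, HET replicates 1 and 5 at 24 h, or HET replicates 1 and 2 at 48 h. It was also lost with quantile normalization (limma adjusted p 0.0738) and with the directions that the authors had removed as covariates (0.0538).

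Glul and Erbb3, which rose in WT, did not pass the threshold in HET at 48 h. Glul had normalized counts in HET of 15807, 13642 and 14722 at 48 h, above all 12 h cultures, with a log2 ratio of 0.28 (limma adjusted p 0.0515). Its limma adjusted p was 0.0433 without WT replicate 2 at 12 h, 0.0489 without WT replicate 5 at 12 h, 0.0476 without HET replicate 1 at 24 h and 0.0407 with quantile normalization. Erbb3 in HET had 174, 166 and 253 at 12 h and 333, 636 and 164 at 48 h. Replicate 3 at 48 h was the lowest of all HET cultures, and replicate 2 the highest. The log2 ratio of Erbb3 was 0.75 (limma adjusted p 0.185), and 1.24 (limma adjusted p 0.0113) without replicate 3 at 48 h. Fabp7 in HET had 160, 170 and 152 at 48 h, with a log2 ratio of -0.89 (limma adjusted p 0.117), and the authors' deposited table gives it an adjusted p of 0.0431.

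**Figure D2:**
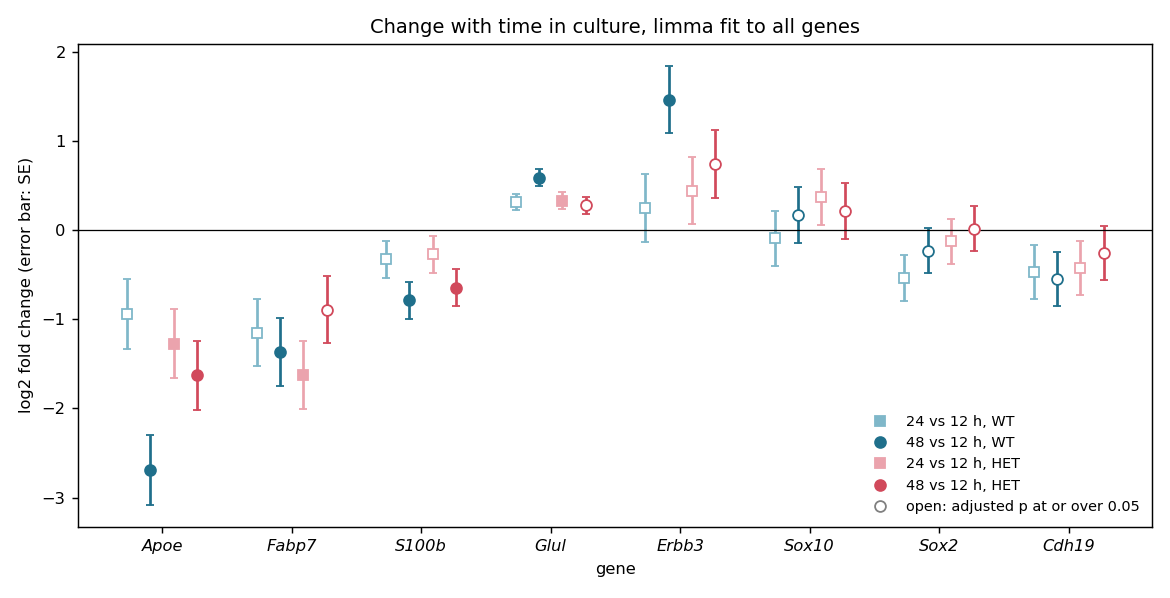
Log2 ratio against 12 h (y axis) of the 8 genes (x axis) at 24 h (squares) and 48 h (circles), in WT and HET, with bars of 1 SE and open symbols where the limma adjusted p was at or over 0.05. Apoe had the lowest value, -2.69 in WT at 48 h, and Erbb3 the highest, 1.47 in WT at 48 h.

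Between genotypes, 0 of the 8 genes passed the limma threshold at any time in the fit without the replicate number as a block. With that block, Glul passed at 48 h (limma adjusted p 0.0372). Dynlrb1, though lower in every HET culture, also missed the threshold at 12 and 48 h without the block, but not in the authors' deposited table. A miss therefore does not show that a gene was unchanged. At 12 h the log2 ratios of HET against WT ran from -0.48 for Sox10 to 0.42 for Fabp7, and 0.00581% of all genes passed. Sox10 had normalized counts in HET of 1034, 1271 and 1422 at 12 h, all below the 3 WT cultures; such a separation in either direction was seen in 15.1% of all genes. The lowest limma adjusted p among the 8 genes was 0.645 at 12 h, and 0 of the 8 had an unadjusted p under 0.05, against 1447 of all genes. At 24 h again 0.00581% of all genes passed, 0 of the 8 genes had an unadjusted p under 0.05 (198 of all genes), and none of the 8 separated the genotypes. HET replicate 1 at 24 h was the lowest of the 6 cultures of that time in Apoe, Fabp7, Sox10, Erbb3, Cdh19 and Sox2.

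At 48 h, 0 of the 8 genes and 0 of 17198 genes (0%) passed in limma, with 3782 genes at an unadjusted p under 0.05. At this time all 3 pairs of same-numbered cultures deviated together from their group means (r from 0.21 to 0.46). With the replicate number as a block 1790 genes passed, Glul among the 8 (log2 ratio -0.33, limma adjusted p 0.0372). With the directions removed by the authors as further covariates 1777 passed and 0 of the 8, the lowest limma adjusted p being 0.0596. The genotypes did not overlap for 3 of the 8 genes, against 24.0% of all genes. Apoe was higher in HET (6415 ± 2149 against 3206 ± 32.1 normalized counts, SD, n = 3), with a log2 ratio of 0.94 (SE 0.39, limma adjusted p 0.175). Fabp7 was likewise higher in every HET culture (160 ± 9.38 against 93.8 ± 48.5 normalized counts, SD, n = 3), with 0.89 (SE 0.38, limma adjusted p 0.181). Glul was lower in every HET culture (14723 ± 1083 against 18456 ± 1356 normalized counts, SD, n = 3), with -0.33 (SE 0.093, limma adjusted p 0.0712). Without HET replicate 1 at 48 h the limma adjusted p of Glul was 0.0495, with a log2 ratio of -0.38. With 3 cultures against 3, an exact permutation test of 1 gene cannot go below 0.1. The authors' deposited table gives Apoe a log2 ratio of 1.0 with an adjusted p of 0.0469 at 48 h, Glul 0.0838 and Fabp7 0.188.

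Without HET replicate 3 at 48 h the log2 ratio of HET against WT at 48 h was 0.73 for Apoe, 0.93 for Fabp7 and -0.33 for Glul, each with a limma adjusted p over the threshold (0.549, 0.423 and 0.251). Lineage genes moved with that culture: Erbb3 was at -0.75 with it and -0.26 without it, and Sox10 at -0.44 with it and -0.077 without it, all short of the threshold. Averaged over the 3 times, 0 of the 8 genes passed, the lowest limma adjusted p was 0.366, and 1 had an unadjusted p under 0.05, Glul. Over all genes 0.0174% passed that comparison, and 2315 had an unadjusted p under 0.05.

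The change from 12 to 48 h was also compared between genotypes, as an interaction in the same fit. Of the 8 genes 0 passed in limma, and of all genes 0 (0%), with 1534 at an unadjusted p under 0.05. The difference, HET minus WT, ran from -0.72 for Erbb3 to 1.06 for Apoe on the log2 scale. The lowest limma adjusted p was 0.548, and 1 of the 8 genes, Glul, had an unadjusted p under 0.05. The falls of Apoe by 2.69 in WT and by 1.63 in HET were thus not shown to differ.

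Marker sums of other cell types moved over the same times. In WT, 11 macrophage markers summed to between 25 and 38.1 FPKM at 12 h and between 58.7 and 103 FPKM at 48 h, and in HET to between 25.2 and 34.7 and between 34.3 and 54.4 FPKM. Of the 11 macrophage markers, 4 rose and 1 fell past the threshold in WT, against 30.0% and 17.1% of all genes. In HET 2 rose and 0 fell, against 10.6% and 3.62% of all genes, while Adgre1 of that list had no row. The 6 fibroblast markers went from between 39.9 and 88.2 to between 107 and 154 FPKM in WT (4 rose), and the 6 markers of dividing cells from between 2.95 and 3.83 to between 13.1 and 25.3 FPKM (6 rose). The 6 endothelial markers went from between 58.1 and 75.6 to between 27.8 and 40.3 FPKM (3 fell), and the 4 neutrophil markers from between 6.01 and 225 to between 3.68 and 4.91 FPKM (4 fell). The 12 neuron markers ranged from 6351 to 7963 FPKM at 12 h and from 6754 to 7203 FPKM at 48 h, with 3 higher and 6 lower. Single cultures set several of these counts in WT. Without WT replicate 1 at 12 h 2 neuron markers fell, and without WT replicate 2 at 12 h 3 neuron markers and 2 neutrophil markers did. Macrophage markers that rose numbered 2 without WT replicate 2 at 12 h or WT replicate 2 at 48 h, and those that fell numbered 2 without WT replicate 5 at 12 h. In HET 0 macrophage markers rose without HET replicate 1 or 2 at 12 h or HET replicate 1 or 2 at 48 h. None of the markers with a row was at 0 in any culture. The authors' adjusted values held no 0 for any gene, so this does not show that a marker was detected. The part of these cells in the results on the 8 genes was not tested.

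**Figure D3:**
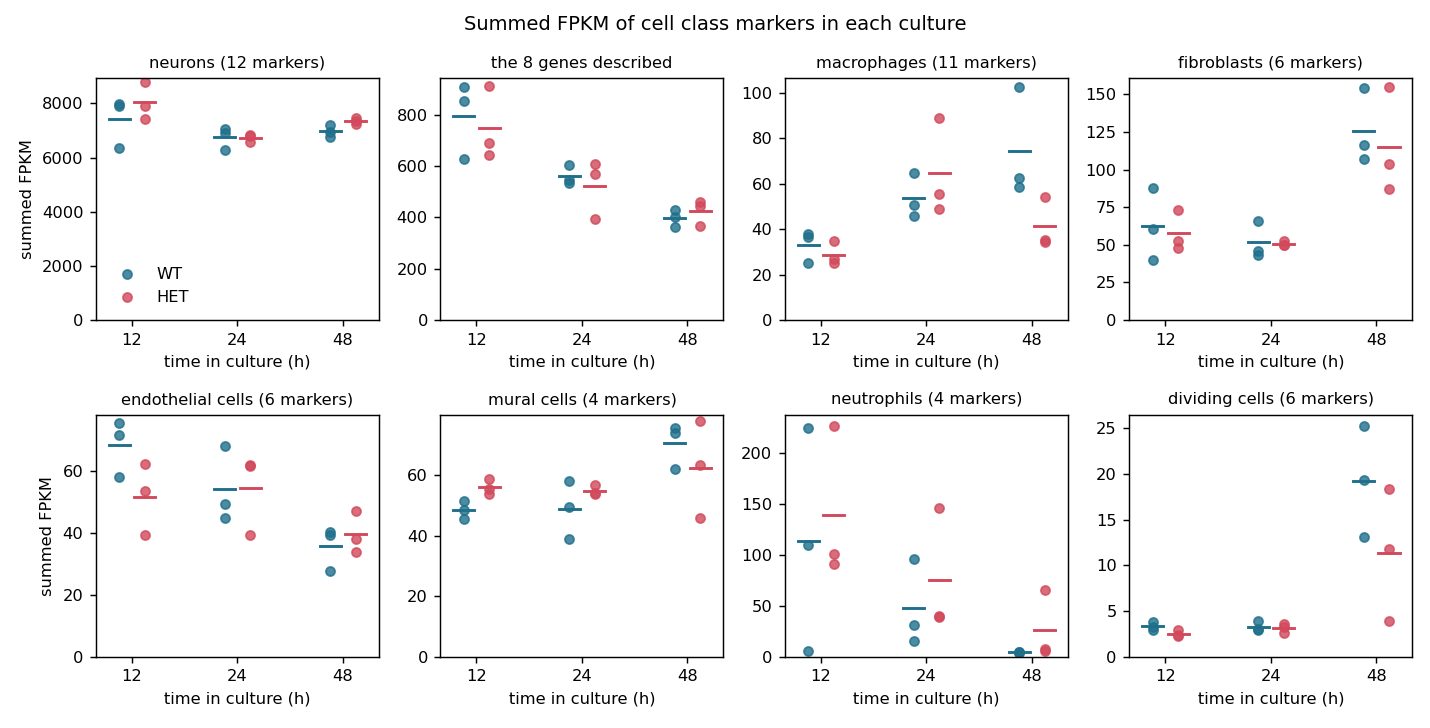
Summed FPKM (y axis, linear, from 0) of the markers of 7 cell classes and of the 8 genes by time in culture in hours (x axis), where each point is 1 culture and bars are group means (n = 3 per group). The 8 genes went from between 628 and 907 FPKM at 12 h to between 361 and 427 FPKM at 48 h in WT, while sums of fibroblasts and dividing cells were higher at 48 h. The sum of the 8 genes is set mainly by Apoe, S100b and Glul. In WT their means were 404, 252 and 105 FPKM at 12 h and 61.7, 143 and 158 FPKM at 48 h. Sox10, the next in level, had 15.3 and 18 FPKM, so the sum does not show a fall of all 8 genes.

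Within groups, 4 of the 8 genes varied together. After each group's mean was taken off the log2 values, Pearson's r over the 18 cultures was 0.89 for Sox10 with Erbb3, 0.85 with Cdh19 and 0.82 with Sox2. It was 0.85 for Erbb3 with Cdh19, 0.87 for Erbb3 with Sox2 and 0.89 for Cdh19 with Sox2. Without HET replicate 1 at 24 h and HET replicate 3 at 48 h, which were low in these genes, the 6 values lay between 0.62 and 0.86 over 16 cultures. S100b had r between -0.17 and 0.05 with the same 4 genes, and Glul between -0.49 and -0.29. Apoe and Fabp7 had r of 0.66 with each other, and 0.41 over the 16 cultures. These values are descriptions: the genes of 1 culture share its library, and its mix of cells was not measured apart from its RNA.

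**Figure D4:**
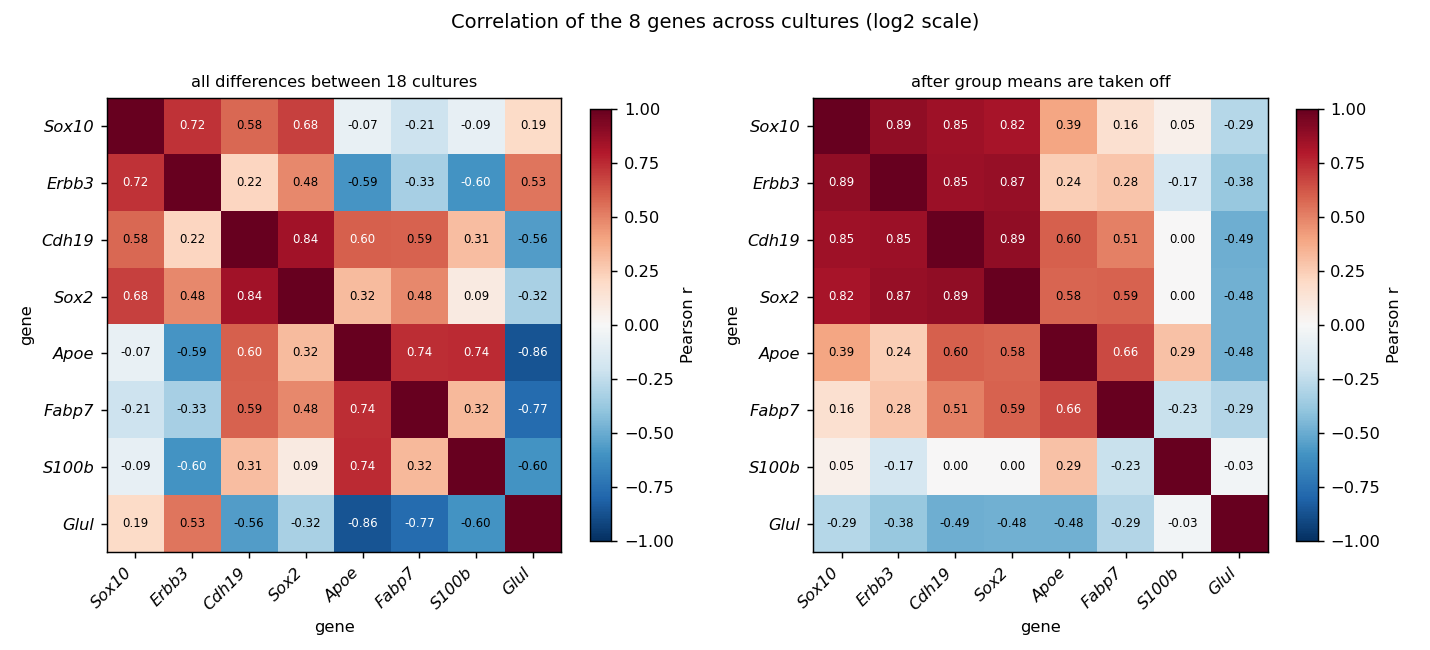
Pearson's r between each pair of the 8 genes (both axes) on the log2 scale over 18 cultures, for all differences between cultures (left) and after group means are taken off (right), with colour from -1 to 1. On the right, Sox10, Erbb3, Cdh19 and Sox2 form a block with r from 0.82 to 0.89, and S100b has r from -0.17 to 0.05 with these 4.

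Over all differences between the 18 cultures, Apoe followed Fabp7 (r = 0.74) and S100b (r = 0.74) and ran against Glul (r = -0.86) and Erbb3 (r = -0.59). Among 13593 genes with a mean normalized count of at least 50, those with the profile most like the mean of the 8 genes were Sema3b (r = 0.90), Arhgap24, Gpm6b, Gatm, Itgb8, Foxd3, Vcam1 and Plekhb1 (r = 0.85). Foxd3 encodes a transcription factor of the neural crest. The genes nearest to S100b alone were Nefh (r = 0.99), which encodes the neurofilament heavy chain of large neurons, Ckmt1 (r = 0.98) and Pcp4 (r = 0.96). Each r is over 18 cultures and has no test.

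Most other genes of satellite glia on a list were lower in WT at 48 h. This list and the next 5 were chosen with earlier results of these data known, so their shares are descriptions and not tests. Of 15 listed genes all 15 were measured, and in WT 10 fell and 0 rose past the limma threshold, against 17.1% and 30.0% of all genes, with a median log2 ratio of -1.23. Ptprz1, which encodes a receptor phosphatase, had a log2 ratio of -2.23 (limma adjusted p 2.23e-05). In HET 6 of the 15 fell and 0 rose at 48 h, against 3.62% and 10.6% of all genes, with a median of -0.45, and Ptprz1 had -1.04. Leaving out 1 culture gave 8 to 11 lower and 0 or 1 higher genes in WT. In HET the counts of this and the next 5 lists were 0 without HET replicate 2 at 12 h, HET replicate 1 at 48 h or HET replicate 2 at 48 h, where 0 of all genes passed. Without HET replicate 3 at 48 h 3 of the 15 rose. At 24 h in HET 4 of the 15 fell and 0 rose, against 5.76% and 13.1% of all genes. The count that fell was 0 without HET replicate 2 at 12 h, HET replicate 5 at 12 h or HET replicate 1 at 24 h.

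Of 15 Schwann cell and myelin genes, 2 rose and 4 fell in WT at 48 h, a share near the 47.1% of all genes, with a median log2 ratio of -0.35. Gldn, which encodes gliomedin of the node of Ranvier, rose by 1.36 (limma adjusted p 0.00422). Ngfr, the p75 neurotrophin receptor that neurons also express, fell by 1.14 (5.52e-05) and Mag, a low-count myelin gene with a mean of 32.4 at 12 h and 10.5 at 48 h, fell by 2.0 (0.0349), limma adjusted p in parentheses. The WT count of lower genes was 2 without WT replicate 1 at 12 h or WT replicate 1 at 48 h. That of higher genes was 1 without WT replicate 2 or 5 at 12 h or WT replicate 1 or 2 at 48 h. In HET, Ngfr (-0.70) and Scn7a (-0.44), a sodium channel, were the 2 genes that fell, and 0 rose, against 3.62% and 10.6% of all genes. Without HET replicate 1 at 12 h 1 fell, and without HET replicate 3 at 48 h 1 fell and 3 rose.

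In the neuregulin and ErbB pathway, 2 of 11 genes rose and 3 fell in WT at 48 h, again near the share of all genes. The higher count was 0 without WT replicate 1 at 48 h, and 1 without WT replicate 2 or 5 at 12 h, replicate 1 at 24 h or replicate 2 at 48 h. In HET 0 passed in limma, against 14.2% of all genes, and 3 had an unadjusted p under 0.05. Without WT replicate 5 at 12 h 1 rose there, and without HET replicate 3 at 48 h 3 rose and 1 fell. In WT at 48 h the ligand gene Nrg2 rose by 0.70 (limma adjusted p 0.0133), while the adaptor genes Gab1 and Grb2 fell by 1.06 and by 0.50 (1.33e-04 and 0.0156). Among 15 partners of SOX10 and SOX2 and genes of the Notch pathway, 4 rose and 6 fell in WT, and 1 rose and 1 fell in HET, where 47.1% and 14.2% of all genes passed. The WT count of higher genes was 1 without WT replicate 5 at 12 h or WT replicate 2 at 48 h, and 2 without WT replicate 1 at 48 h. In HET 2 rose without WT replicate 1 or 3 at 48 h, and 4 rose and 2 fell without HET replicate 3 at 48 h. The Notch ligand gene Dll1 fell by 2.68 in WT and by 1.61 in HET, and the Notch target Hey1 rose by 1.51 in WT and by 1.0 in HET. Hes5, another Notch target, fell by 1.76 in WT from a mean of only 18.6 to 4.83 normalized counts.

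Of 11 genes of apolipoprotein and fatty acid handling, 2 rose and 4 fell in WT, and 1 rose and 1 fell in HET, near the same shares of all genes. The WT count of lower genes was 1 without WT replicate 2 at 48 h. In HET 0 fell without HET replicate 1 at 12 h, and 2 rose and 2 fell without HET replicate 3 at 48 h. Apod, an apolipoprotein of glia, fell by 2.64 in WT and by 1.46 in HET, as Apoe fell. Lrp1, a receptor for apolipoprotein E, rose by 1.15 in WT and by 1.19 in HET, and Fabp3 rose by 1.32 in WT. Of 10 genes of glutamine and glutamate handling, 1 rose and 2 fell in WT, and 0 rose and 1 fell in HET, beside 47.1% of all genes in WT and 14.2% in HET. The HET call was lost in 12 of the 18 fits that left out 1 culture: any HET culture at 12 h, HET replicate 5 at 24 h, HET replicates 1 and 2 at 48 h, WT replicates 1 and 2 at 12 h, any WT culture at 24 h and WT replicate 2 at 48 h. Slc1a3, the glial glutamate transporter GLAST, fell by 1.71 in WT and by 0.99 in HET, opposite in sign to Glul in WT. Slc1a3 is the HET call of this list and is also on the list of other satellite glia genes, so its falls are counted in both. The amino acid transporter gene Slc38a2 fell by 0.61 and asparagine synthetase, Asns, rose by 0.41, both in WT. Between genotypes 0 of the 76 genes of the 6 lists passed in limma, without the replicate block, at any time or in the average. At an unadjusted p under 0.05 there were 6 at 12 h (7.89%, against 8.41% of all genes), 1 at 24 h (1.32% against 1.15%), 16 at 48 h (21.1% against 22%) and 12 in the average (15.8% against 13.5%), shares near those of all genes. These genes were not counted with the replicate block, under which 1790 of all genes passed at 48 h.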

How the data were processed

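RNA sequencing of 18 cultures was analysed from a single table deposited by the authors. Per the submitters' processing notes, CASAVA 1.8.2, edgeR and the build mm10 were used, and the aligner, counter and annotation are not given in the sources used here. Per the file headers, the table holds the authors' normalized counts, FPKM values, log2 fold changes and adjusted p-values (FDR). The normalized counts and a second set of unlabelled per-sample columns are treated as a signal that the authors had already adjusted, not as raw counts: 0 values were whole and column totals of the normalized counts ran from 41509705 to 41509874. The second set, called differently scaled columns, had totals from 39465712 to 44213485. Its logarithms spanned 15 of 17 possible dimensions, so the authors had removed 2 directions among samples and residual degrees of freedom are overstated. Sequencing depth per culture is therefore unknown, and no interval or floor was computed.

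Groups came from the sample titles. Values were transformed to log2(normalized count + 1), which understates changes of low genes, and fitted in limma 3.58.1 (R 4.3.3) with 1 coefficient per group, eBayes with a trend, and Benjamini-Hochberg adjustment over 17198 genes within each of 9 comparisons (12 residual and 4.97 prior degrees of freedom). The code was tested on simulated data. Named genes were the 8 genes, up to 3 genes with the largest change past the threshold per related list at 48 h in each genotype, and the genes with the most similar profiles. Some genes that this rule names are not reported here. The 8 genes and all lists were chosen with earlier results of these data known. Same-numbered cultures of both genotypes deviated together (r over 0.1 in every pair) at 48 h but not at 12 or 24 h, nor did those of different times within a genotype; numbers were therefore taken to pair HET and WT at 48 h, from the data and not from the labels. Alternatives were the pseudocount, the filter, the column set, quantile normalization, the removed directions as covariates, a replicate block and leaving out each culture. The block gave each replicate number the same effect at all times, and pairs at 48 h alone were not fitted. Counts of list genes without each culture and correlations without a pair of cultures were added after seeing the data.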

Additional observations from a re-analysis of the deposited data

How the results depend on the processing

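The pseudocount and the filter changed no count of the 8 genes past the threshold, and quantile normalization and the differently scaled columns moved none by over 1.5 times. With the directions removed by the authors as covariates, 1 gene in place of 2 passed in HET from 12 to 48 h. Leaving out each culture gave 0 to 1 genes for HET against WT at 48 h, 0 to 1 for 24 against 12 h in WT, 4 to 6 for 48 against 12 h in WT, 1 to 3 for 24 against 12 h in HET and 0 to 3 for 48 against 12 h in HET. For the HET comparisons with 12 h, which cultures these were is given beside the results; the cause was not tested.

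Same-numbered cultures of both genotypes correlated at r from -0.21 to 0.46 (mean 0.17), and 14 of 18 cultures were closest to their own number, a hint from the data of a shared replicate effect. The rule for pairing, r over 0.1 in each pair, was met for HET against WT at 48 h alone. The replicate block raised the counts of all genes past the threshold from 0 to 1790 for that comparison, 3 to 205 for genotypes averaged over times, 622 to 1218 for 24 against 12 h in WT and 2442 to 5099 for 48 against 12 h in HET. Under quantile normalization the count was 276 for the genotypes at 48 h and 1596 for HET from 12 to 48 h. The removed directions as covariates gave 1132 for 24 against 12 h in WT. The block put Sox10 past the threshold from 12 to 48 h in WT (0.59, limma adjusted p 0.0130) and in HET (0.64, 0.0158), Fabp7 from 12 to 24 h in WT (0.0483), and Glul (0.0384) and Erbb3 (0.00877) from 12 to 48 h in HET. No culture at 48 h was numbered 5, and none at 12 or 24 h was numbered 3. Under the block, numbers 1 and 2 alone thus link 12 to 48 h, and the pairing rule was not met between these times. The block estimate for Erbb3 in HET (1.21) was close to the 1.24 without HET replicate 3 at 48 h. For the 8 genes the replicate block gave 1 gene for HET against WT at 48 h, 1 for 24 against 12 h in WT and 5 for 48 against 12 h in HET. The replicate block together with the removed directions gave 3 for 24 against 12 h in WT and 6 for 48 against 12 h in HET.

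Signs that turned belonged to genes short of the threshold. From 12 to 48 h in HET, Sox2 (0.02) was at -0.078 on the differently scaled columns, -0.035 with the removed directions and -0.13 with quantile normalization, and Cdh19 (-0.26) at 0.033 with the replicate block. For HET against WT at 48 h, Cdh19 (0.06) was at -0.014 with the removed directions and -0.062 with these and the replicate block. In the same comparison, S100b (0.02) was at -0.0049 with the removed directions and -0.017 with quantile normalization, which put Sox2 (-0.06) at 0.058. Leaving out each culture gave log2 fold changes at 48 h for HET against WT from -0.10 to 0.12 for S100b, -0.24 to 0.31 for Cdh19 and -0.29 to 0.19 for Sox2. The same ranges in WT were -0.27 to 0.084 at 24 h and -0.080 to 0.44 at 48 h for Sox10. In HET they were -0.66 to 0.031 for Cdh19 and -0.34 to 0.18 for Sox2 at 24 h, and -0.12 to 0.58 for Sox10 and -0.21 to 0.27 for Sox2 at 48 h.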

Other observations

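The genes with the profile most like each of the other 7 genes, by Pearson's r over 18 cultures and with no test, were as follows. Nearest to Apoe were Sepp1 (r = 0.97), which encodes a secreted selenoprotein, Cp (r = 0.97), which encodes ceruloplasmin, and Iigp1 (r = 0.97). Fabp7 was nearest to Serpina3g, G3bp2 and Rnf112 (r = 0.94 each), and Glul to Slc39a6 (r = 0.95), Il7 (r = 0.94) and BC017643 (r = 0.94). Sox10 was nearest to Cadm4, Sox6 and Nek6 (r = 0.90 each), and Erbb3 to 2310009A05Rik (r = 0.96), Nkd2 (r = 0.95) and Nucks1 (r = 0.95). Cdh19 was nearest to Gatm (r = 0.95), Gpm6b (r = 0.95) and Mbp (r = 0.90), the last a myelin gene. Sox2 was nearest to Sema3b (r = 0.93), Plekhb1 (r = 0.90) and Rdh5 (r = 0.87).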
